A study of Mus musculus with 4 samples.

Results

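NF-kB subunits and the IkB proteins that hold them were followed through 7 genes: Nfkbia, Nfkbib and Nfkbie, which encode the cytoplasmic inhibitors IkB alpha, beta and epsilon, Bcl3, which encodes a nuclear member of the IkB family, and Nfkb2, Rela and Relb, which encode DNA-binding subunits. They were represented by all 10 probe sets that the platform annotation assigns to exactly 1 gene symbol among these 7, out of 12488 probe sets on the array. Mouse embryonic fibroblasts were grown in culture, and their total RNA was hybridised to single-colour Affymetrix U74Av2 oligonucleotide arrays, with 1 array for each of 4 groups. The groups were XIAP knockout cells treated with TNFa at 20 ng/ml for 4 hours, XIAP knockout cells left untreated, wild-type cells given the same TNFa treatment, and untreated wild-type cells. XIAP is the X-linked inhibitor of apoptosis protein. All cultures were grown in DMEM with fetal calf serum, and the treated ones were confluent. No source used here gives the strain, the number of embryos behind each culture, the passage number or the origin of the TNFa, so each genotype is known from 1 culture line of unstated origin.

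NF-kB is a family of dimeric transcription factors that in resting cells are mostly kept in the cytoplasm by IkB proteins. TNF receptor signalling activates the IkB kinase complex, which marks IkB for ubiquitination and proteasomal breakdown, and the freed dimers enter the nucleus. Nfkbia is among their best known targets, and its newly made protein retrieves NF-kB from the nucleus, which closes a feedback loop. In a second branch the precursor p100, the product of Nfkb2, is processed to p52, the usual partner of RelB.

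The sequences upstream of 4 members are shown as examples with and without a match to the kappaB consensus, the DNA motif bound by NF-kB dimers. Whether a match goes with the size of the TNF response was not tested. Each is the 250 bases before the gene's RefSeq start in GRCm38.p6, read 5′ to 3′ on the gene's strand, with consensus matches on either strand in capitals. The windows are chr12:55492648-55492897 on the minus strand for Nfkbia, chr17:45555450-45555699 on the plus strand for Nfkbie, chr19:46304487-46304736 on the plus strand for the first of 3 annotated Nfkb2 starts, and chr19:5637291-5637540 on the plus strand for Rela.
Nfkbia: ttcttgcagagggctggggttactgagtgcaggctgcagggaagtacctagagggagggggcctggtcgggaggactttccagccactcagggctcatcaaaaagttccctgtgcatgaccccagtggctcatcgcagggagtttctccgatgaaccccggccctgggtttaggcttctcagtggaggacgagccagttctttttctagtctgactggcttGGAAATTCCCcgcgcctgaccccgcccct
Nfkbie: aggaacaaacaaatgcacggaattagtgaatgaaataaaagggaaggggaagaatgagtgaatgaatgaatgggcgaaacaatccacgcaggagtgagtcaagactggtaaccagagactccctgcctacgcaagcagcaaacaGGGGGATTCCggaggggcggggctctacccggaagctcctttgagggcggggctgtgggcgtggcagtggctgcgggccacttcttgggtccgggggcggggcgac
Nfkb2: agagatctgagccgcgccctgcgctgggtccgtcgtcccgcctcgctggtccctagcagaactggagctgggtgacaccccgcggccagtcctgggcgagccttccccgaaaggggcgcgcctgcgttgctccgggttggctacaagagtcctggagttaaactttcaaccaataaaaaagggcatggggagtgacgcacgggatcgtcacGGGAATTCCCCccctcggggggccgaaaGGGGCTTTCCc
Rela: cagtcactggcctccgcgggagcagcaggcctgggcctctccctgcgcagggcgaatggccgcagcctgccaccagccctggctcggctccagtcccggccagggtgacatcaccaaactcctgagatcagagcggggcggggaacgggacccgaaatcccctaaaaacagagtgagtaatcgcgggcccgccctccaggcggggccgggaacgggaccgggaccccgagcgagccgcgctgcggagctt

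In the longer windows searched, which ran 50 bases past the start, Nfkbia held a single match, GGAAATTCCC, at positions -29 to -20 counted from the start base as 0. Nfkbie held GGGGGATTCC at -106 to -97. Nfkb2 held GGGAATTCCC at -39 to -30, which matches on both strands and overlaps a further match shifted by 1 base, and GGGGCTTTCC at -11 to -2. Upstream of the last of its annotated starts GGGACTTTCC lay at -225 to -216, and the middle start had the same stretch just past it and GGAATGTCCC at -236 to -227. In Bcl3 the match GGGAAGTCCC lay at positions 2 to 11, past the stretch that is shown for the others. No match was found in the windows of Nfkbib and Rela, and the window of Relb was not analysed here. The consensus occurs in 8.46% of 32851 promoter windows of this length. By chromosome, Bcl3, Nfkbib and Relb lie on 7, Nfkbia on 12, Nfkbie on 17, and Nfkb2 and Rela on 19. A match is a string of letters and not a measured binding site.

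The deposited values are MAS5 signals on a linear scale, brought by the submitters to one trimmed mean per array. Signals below 92.5, the 40th percentile of all non-control signals, were set to that floor before log2 was taken, and a probe set counted as measured when at least 1 array of a comparison lay above it. Of the 10 probe sets, 7 were above the floor on every array, Bcl3 on 2, the second Relb probe set on 1, and the second Rela probe set on none. Median signals over all non-control probe sets were 173 and 179 for TNF-treated and unstimulated knockout cells and 151 and 183 for TNF-treated and unstimulated wild-type cells. Xiap itself, in its brightest probe set, read 120.1 and 180.5 in treated and unstimulated knockout cells and 125.7 and 239.0 in the corresponding wild-type cells; which part of the gene the knockout removes is not known here, so these signals do not check the genotype labels. The fibroblast identity of the cultures was read from 9 markers, of which 8 or 9 were above the floor on each array. Col1a1 lay between 21983 and 25901, and Vim was dim, at 42.1 to 94.5. In unstimulated cells 1 of the 9 was at least 2-fold higher in the knockout and 1 lower, where 4.53% and 4.58% of all probe sets were. These were S100a4, at 4106 in knockout and 1351 in wild-type cells, and Thy1, at 308.5 and 1120. Both stayed past 2-fold with TNF. Of 7 leukocyte markers 3 or 4 were above the floor. Cd14 was the brightest, at 1534 to 2402, Csf1r read 113.9 to 373.2 and Cd68 112.6 to 144.9, while Ptprc stood at 4.5 to 9.2. The summed signals were mostly Cd14. With TNF first in each pair, they were 3016 and 2880 on the knockout arrays and 1875 and 2497 on the wild-type arrays. Among 5 endothelial markers at most 2 exceeded the floor on any array, with sums of 162 to 364.5, and among 5 epithelial markers 1 did, with sums of 371.1 to 634.5. Whether any of these other cell types contributed to the results was not tested. Fewer cells of a type and less RNA per cell cannot be told apart in bulk RNA.

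The inhibitor genes carried more transcript after TNF in both genotypes. The brighter Nfkbia probe set, 101554_at, had signals of 4357 in TNF-treated and 737.6 in unstimulated knockout cells, and of 3626 in TNF-treated and 584.8 in unstimulated wild-type cells. Both treated arrays lay above both unstimulated ones, and the 4 values fell into 2 well-separated pairs. The change was 5.91-fold in knockout and 6.20-fold in wild-type cells. Its second probe set, 104149_at, gave signals of 2383 and 428.2 in knockout cells with and without TNF and 2048 and 470.9 in wild-type cells with and without TNF. The ratios from this probe set were 5.56-fold in knockout and 4.35-fold in wild-type cells, so the probe sets differed by 0.09 on the log2 scale for the knockout response and by 0.51 for the wild-type response although both measure 1 gene.

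Nfkbie, whose product is an inhibitor of the same class, had signals of 1196 with TNF and 192.2 without in knockout cells, and of 985.0 with TNF and 253.4 without in wild-type cells. It was the cytoplasmic inhibitor gene with the largest spread between genotypes, with a response of 6.22-fold in knockout and 3.89-fold in wild-type cells. The wild-type and knockout arrays interleaved: knockout was highest with TNF and lowest without. Nfkbib had signals of 1047 and 378.2 in treated and unstimulated knockout cells and 1013 and 391.4 in the corresponding wild-type cells. Its response was the smallest among the IkB genes, at 2.77-fold in knockout and 2.59-fold in wild-type cells, and the closest between genotypes after the brighter Nfkbia probe set.

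Bcl3, whose product binds p50 or p52 homodimers in the nucleus and can turn them into activators, was at 499.8 in TNF-treated and 36.6 in unstimulated knockout cells, and at 881.1 in TNF-treated and 42.3 in unstimulated wild-type cells. Both unstimulated values were below the floor, so Bcl3 was measured only under TNF. Against the floor it was at least 5.40-fold higher with TNF in knockout and at least 9.52-fold higher in wild-type cells, and the order of these bounds does not settle which response was larger. With the floor at the 60th percentile its knockout change was 0.78 on the log2 scale, under 2-fold.

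**Figure D1:**
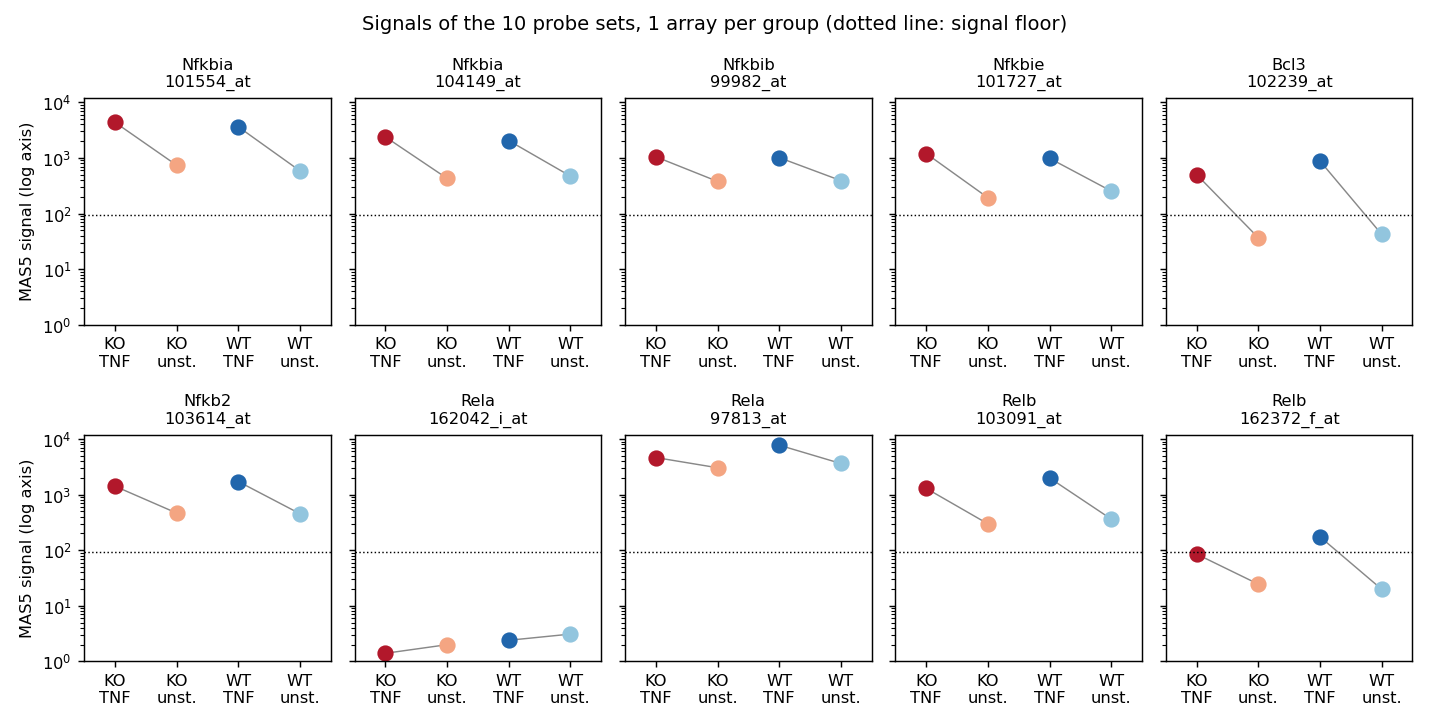
MAS5 signal (log axis) of the 10 probe sets on the 4 arrays, 1 point per array, with knockout (KO, red) left of wild-type (WT, blue), TNF-treated left of unstimulated, and a dotted line at the floor of 92.5. The treated points are above the unstimulated ones for every probe set except the dim Rela 162042_i_at, whose 4 signals are between 1.4 and 3.1.

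Among the subunit genes, Relb and Nfkb2 responded by several fold and Rela by less. The brighter Relb probe set, 103091_at, had signals of 1292 with TNF and 297.8 without in knockout cells, against 1998 with TNF and 363.1 without in wild-type cells. Its ratios were 4.34-fold in knockout and 5.50-fold in wild-type cells. The other Relb probe set, 162372_f_at, carries a suffix used where probes may match related sequences, and it read 85.0 and 24.5 in knockout cells with and without TNF and 174.3 and 19.9 in wild-type cells with and without TNF. Only the TNF-treated wild-type array exceeded the floor, which gives a bound of at least 1.88-fold in wild-type cells and no measured response in the knockout.

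Nfkb2 had signals of 1414 in TNF-treated and 465.7 in unstimulated knockout cells and of 1720 in TNF-treated and 453.1 in unstimulated wild-type cells. The unstimulated arrays nearly coincided, and the response was 3.04-fold in knockout and 3.80-fold in wild-type cells. Rela, which encodes p65, the main transactivating subunit of the canonical branch, had signals of 4643 with TNF and 3044 without in knockout cells, against 7760 with TNF and 3633 without in wild-type cells. The TNF-treated wild-type array stood apart from the other 3 for this gene. Its response was 1.52-fold in knockout and 2.14-fold in wild-type cells, the lowest of the members above the floor on every array in each genotype.

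Over the 7 member probe sets above the floor on every array, 6 passed a 2-fold increase under TNF in knockout cells, Rela being the exception, and 7 in wild-type cells. Their median log2 change was 2.12 in knockout cells, against -0.05 over 7254 probe sets above the floor on both arrays, of which 1.25% were at least 2-fold higher and 0.345% 2-fold lower. In wild-type cells it was 1.96, against -0.09 over 6947 such probe sets, of which 2.26% were 2-fold higher and 2.23% 2-fold lower. The 6 probe sets of the knockout count passed 2-fold in both genotypes, a pattern of 0.87% of the 6664 probe sets above the floor on every array. Both TNF arrays were above both unstimulated arrays for all 7, against 10.2% of the 6664. Bcl3 counted as measured only through its TNF signals, and Relb 162372_f_at only through that of TNF-treated wild-type cells, so the filter fixed their direction. With them, the counts at least 2-fold higher were 7 of 8 in knockout cells, where 1.57% of all measured probe sets were higher and 0.399% lower, and 8 of 9 in wild-type cells, where these shares were 2.54% and 2.79%. Counted from the largest increase, the brighter Nfkbia probe set held rank 19 in knockout and 26 in wild-type cells, Nfkbie ranks 17 and 64, Bcl3 ranks 24 and 14 on floored values, and Relb 103091_at ranks 39 and 33, with knockout first. Rela held rank 289 in knockout and 177 in wild-type cells.

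The TNF effect was tested over all 4 arrays with limma, in an additive model of treatment and genotype fitted to 8228 probe sets. This fit has no replicate cultures behind it, and its 1 residual degree of freedom is the gap between the TNF responses of the genotypes. By limma with Benjamini-Hochberg adjustment, the 7 member probe sets above the floor on every array rose with TNF, where 1.01% of all probe sets rose and 0.0851% fell. They also passed when limma was fitted only to probe sets above the floor on every array (7 of 7, adjusted p from 2.2e-06 to 0.00388). In that narrower fit 160 of 6664 probe sets rose and 55 fell. Bcl3 passed as well in the fit to 8228 probe sets, but it entered through its TNF arrays alone and could not have fallen. Nfkbia 101554_at rose by 2.60 on the log2 scale (SE 0.10, limma adjusted p = 0.000788) and Relb 103091_at by 2.29 (SE 0.16, limma adjusted p = 0.00278). The second Nfkbia probe set rose by 2.30 (SE 0.14), Nfkbie by 2.30 (SE 0.22), Bcl3 by 2.84 (SE 0.27, floor-dependent), Nfkb2 by 1.76 (SE 0.14) and Nfkbib by 1.42 (SE 0.15), with limma adjusted p between 0.00264 and 0.0132. Rela rose by 0.85 (SE 0.13, limma adjusted p = 0.0486), and the dim Relb 162372_f_at, which likewise could not have fallen, at 0.46 (SE 0.25, limma adjusted p = 0.458), did not pass. These calls rest on the spread that limma borrows across probe sets of similar signal: without that intensity trend only Nfkbia 101554_at passed (limma adjusted p = 0.0396), and the adjusted p of the other 7 was between 0.0534 and 0.259.

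**Figure D2:**
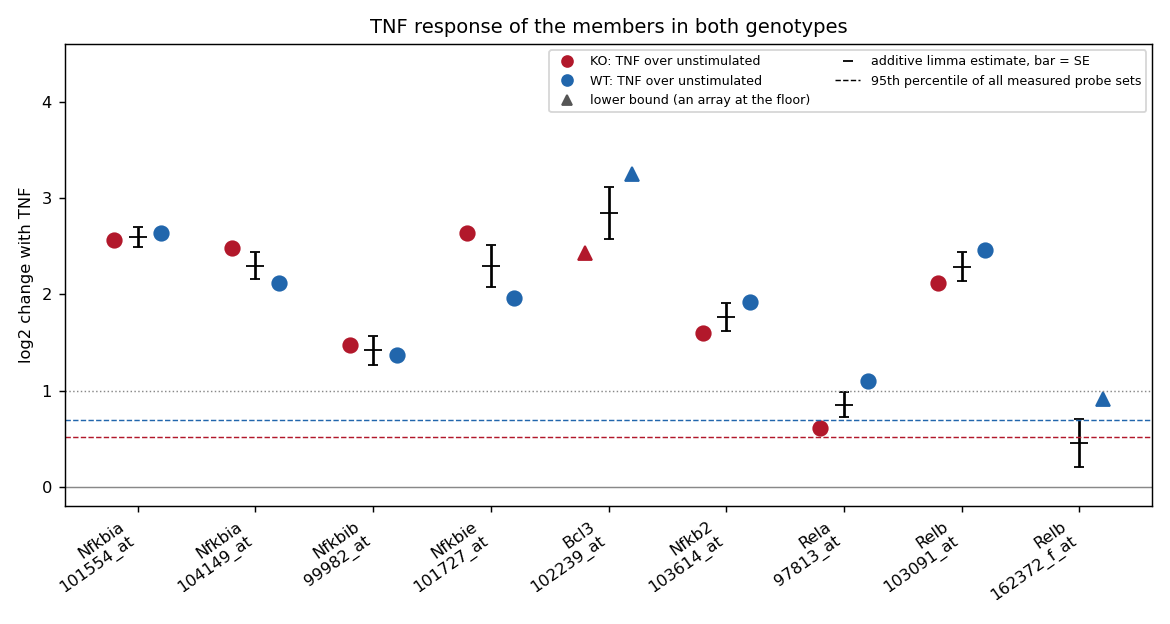
Log2 change with TNF for the 9 measured probe sets in knockout (red) and wild-type (blue) cells, with triangles for lower bounds and black bars for the additive limma estimate and its SE. Dashed lines mark the 95th percentile of all measured probe sets (0.51 in knockout, 0.69 in wild-type), and every plotted member response lies above its line, the nearest being Rela in knockout and Relb 162372_f_at in wild-type cells.

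Because the members were read on the same arrays, their changes can be set against that of Rela without any scaling between arrays. In knockout cells the change of Nfkbia 101554_at exceeded that of Rela by 1.95 on the log2 scale, that of Nfkbie by 2.03, that of Nfkbib by 0.86, that of Relb 103091_at by 1.51 and that of Nfkb2 by 0.99. In wild-type cells the same differences were 1.54 for Nfkbia 101554_at, 0.86 for Nfkbie, 0.28 for Nfkbib, 1.37 for Relb 103091_at and 0.83 for Nfkb2. The excess over Rela was larger in knockout than in wild-type cells for all of these genes, and every such excess shares the same Rela values. Bcl3 is left out here because its changes are bounds.

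The TNF responses of the genotypes differed by less than 2-fold for the 7 member probe sets above the floor on every array. Of 6664 such probe sets, 142 had a response at least 2-fold larger and 51 one at least 2-fold smaller in the knockout. Over all 8228 measured probe sets these shares were 2.69% and 1.23%. As knockout minus wild-type response on the log2 scale, the values were 0.68 for Nfkbie, 0.35 for Nfkbia 104149_at, 0.10 for Nfkbib and -0.07 for Nfkbia 101554_at. The subunit genes gave -0.32 for Nfkb2, -0.34 for Relb 103091_at and -0.49 for Rela. Floored values of -0.82 for Bcl3 and -0.91 for Relb 162372_f_at are left without a bound, because their arrays at the floor could move the value in opposite directions. With 1 array per group none of these differences could be tested, and the probe sets of Nfkbia differed from each other by 0.43 in this quantity.

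Under TNF, the Nfkbia and Nfkbie signals were slightly higher on the knockout array than on the wild-type array, and Nfkbib was nearly equal. Those of Bcl3 and the subunits were lower. On the log2 scale the knockout to wild-type ratio was 0.27 and 0.22 for the Nfkbia probe sets, 0.05 for Nfkbib and 0.28 for Nfkbie. It was -0.82 for Bcl3, -0.28 for Nfkb2, -0.74 for Rela, -0.63 for Relb 103091_at and at or below -0.91 for Relb 162372_f_at. The second Relb probe set was above the floor on the wild-type array alone and could only come out lower, so it is not counted. Of the 8 probe sets above the floor on both arrays, the 4 of Nfkbia, Nfkbib and Nfkbie were above 0 and the 4 of Bcl3, Nfkb2, Rela and Relb below 0, where 55% and 45% of 6817 such probe sets were above and below 0 and the median was 0.06. The grouping was noticed in the values and was not tested. None of the 8 reached 2-fold. Relb 162372_f_at, being a bound, cannot be placed on either side of 2-fold, and it stood at -1.04 with the floor at the 20th percentile or with none. In this comparison 5.83% of all probe sets were past 2-fold higher and 4.97% past 2-fold lower. Scaling the arrays to equal medians moved the median of all probe sets in this comparison to -0.11, turned Nfkbib to -0.15, left the 3 other inhibitor probe sets between 0.02 and 0.08, and put Bcl3 at -1.02 and Relb 162372_f_at at -1.11, past 2-fold lower. Nfkbib alone changed sign among the settings tried. The 4 lower ratios above the floor on both arrays stayed below 0 with quantile normalization and with equal medians. The choice of floor could not move these 4, since both of their TNF signals lay above every floor tried.

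**Figure D3:**
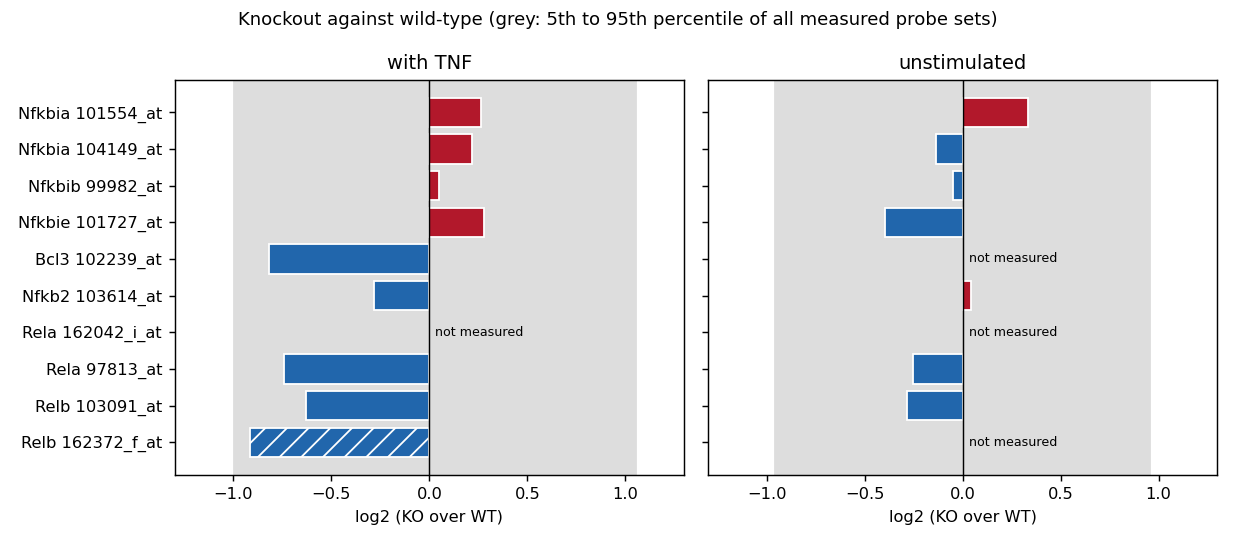
Log2 of knockout over wild-type signal with TNF (left) and unstimulated (right), with red bars above 0, blue bars below 0 and hatching for a bound; grey spans the 5th to 95th percentile of all measured probe sets. All member bars lie inside the grey span in both states.

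In unstimulated cells the members differed little between genotypes. Of 7 measured probe sets none was 2-fold apart, with log2 knockout to wild-type ratios from -0.40 for Nfkbie to 0.34 for Nfkbia 101554_at and a median of -0.14 against -0.02 over all 8060 probe sets. Past 2-fold, 4.53% of all probe sets were higher and 4.58% lower in the knockout. The second Nfkbia probe set gave -0.14, so the probe sets of this 1 gene disagreed by 0.47, more than the size of any member's difference in this state. Nfkbib (-0.05) and Nfkb2 (0.04) were nearest to equal, with Rela at -0.25 and Relb 103091_at at -0.29. Only Rela and Relb 103091_at were lower in knockout cells in both states, a pattern of 34.5% of the 6664 probe sets above the floor on every array, and only Nfkbia 101554_at was higher in both, as were 38.6%. A further pattern, both knockout arrays below both wild-type arrays (26.8% of probe sets), was closed to the 7 members in advance. Their TNF-treated knockout array always lay above the unstimulated wild-type array.

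In the additive limma fit 1 of 9 member probe sets, Rela, passed for genotype. Rela was lower in knockout cells by a fitted log2 difference of -0.50 (SE 0.13, limma adjusted p = 0.0456), where 9.13% of all probe sets were lower and 10.1% higher in the knockout. With shares of this size, 1 of 9 is read as no result about the members. The limma adjusted p of Rela was 0.0531 with the floor at the 20th percentile, 0.0537 with no floor, 0.0577 with equal medians and 0.154 without the intensity trend, so the call did not hold under these settings. Relb 103091_at, at -0.46 (SE 0.16, limma adjusted p = 0.0922), and Nfkbia 101554_at, at 0.30 (SE 0.10, limma adjusted p = 0.0975), did not pass. Genotype and any other difference between the cultures cannot be told apart. Xist, the transcript of the inactive X chromosome, read 1601 and 1232 on the knockout arrays with and without TNF and 5.4 and 34.3 on the wild-type arrays, and the Y-linked Eif2s3y read 9.1 and 2.8 against 308.2 and 489.4, so the cultures also differed in sex-linked transcripts. The part of this in the genotype ratios was not tested.

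**Figure D4:**
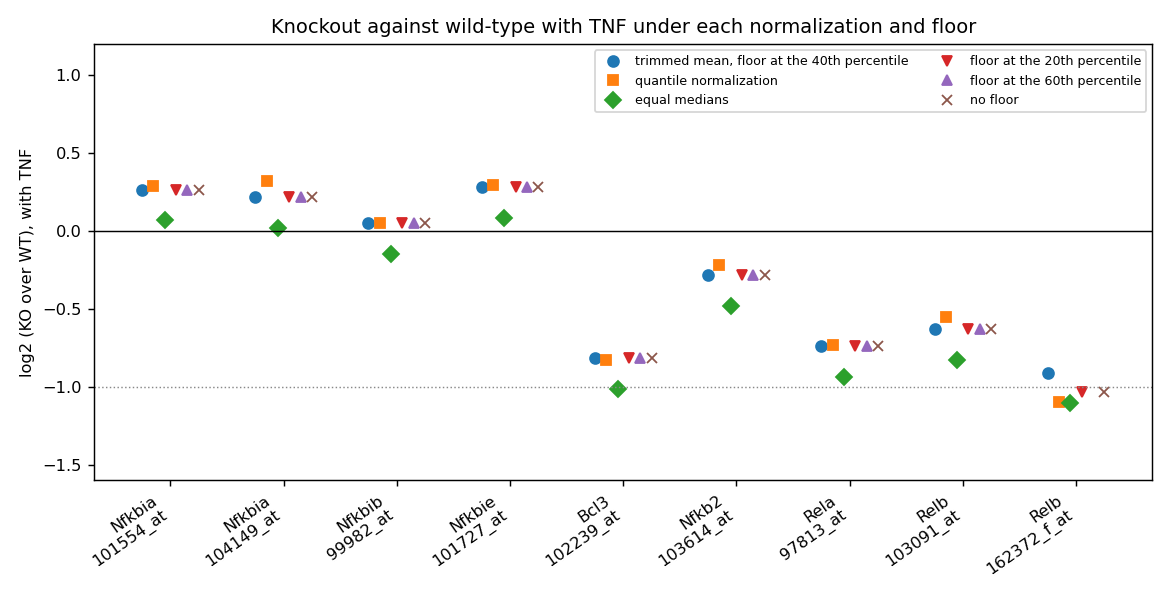
Log2 of knockout over wild-type signal with TNF for each measured member probe set under 3 normalizations and 3 other choices of floor, 1 marker per setting. The lower ratios of Bcl3, Nfkb2, Rela and Relb stay below 0 throughout, while the inhibitor genes lie between -0.15 and 0.32 and Nfkbib changes sign with equal medians.

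Of 6 other Rel and IkB genes, only Nfkbiz and Rel were represented on the array by a probe set of a single symbol, and Nfkb1 was not analysed here. Nfkbiz, which encodes a nuclear IkB protein that Bcl3 resembles, had signals of 197.4 and 101.5 in knockout cells with and without TNF and of 310.9 and 131.8 in wild-type cells with and without TNF. These are log2 changes of 0.96 and 1.24, so Nfkbiz passed 2-fold in wild-type cells alone, and the difference of -0.28 was not tested. It did not pass the limma fit for TNF (adjusted p = 0.095). Rel, which encodes the lymphoid subunit c-Rel, was below the floor on all arrays, at 3.0 to 16.2.

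None of 7 measured genes of the IkB kinase complex and its upstream kinases reached 2-fold with TNF in either genotype, and by limma none passed for TNF. With 1.57% of all probe sets at least 2-fold higher in knockout and 2.54% in wild-type cells, a count of 0 among 7 is near the background. Their log2 changes ranged from -0.42 to 0.41 in knockout and from -0.75 to 0.89 in wild-type cells, with Ikbke, an IkB kinase-related gene, highest in both. Ikbkb, which encodes the catalytic IKK beta subunit, gave -0.16 in both genotypes, and Ikbkg, which encodes the scaffold NEMO, gave -0.22 in knockout and -0.75 in wild-type cells. Tab2, which encodes an adaptor of the kinase TAK1, was higher in knockout than in wild-type cells (genotype effect, limma adjusted p = 0.0108). Its log2 ratio was 1.38 in unstimulated cells and 0.68 with TNF. As 10.1% of all probe sets were called higher in the knockout, 1 of 7 genes is read as no result about the list.

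The 7 measured genes of the ubiquitin steps that act on IkB, among them Btrc and Fbxw11 for the F-box proteins that recognise phosphorylated IkB, changed by -0.21 to 0.04 in knockout and by -0.10 to 0.60 in wild-type cells, and none passed for TNF by limma. The 6 measured coactivator and deacetylase genes that act with p65 changed by -0.30 to 0.07 in knockout and by -0.32 to 0.04 in wild-type cells, and none passed for TNF. By genotype, Hdac2 and Crebbp passed and were higher in knockout cells, with log2 ratios of 0.78 and 1.07 under TNF and 0.85 and 0.89 without it (limma adjusted p = 0.00685 and 0.0281). With 10.1% of all probe sets called higher in the knockout, 2 of 6 genes is read as no result about the list. The additive TNF fit called 90 of all 8228 probe sets, 1118 had an unadjusted p below 0.05, and the probe sets used for the kinase, ubiquitin and coactivator genes were not among the 90.

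For the members at least 2-fold higher in both genotypes and above the floor on every array, the 3 probe sets of other genes with the nearest pattern were taken from 6062 candidates, by the Euclidean distance between the 4 log2 signals after each was centred on its own mean. With only 4 arrays such likeness is loose. Nfkbia and Nfkbie were nearest to each other: the brighter Nfkbia probe set was closest to Nfkbie (distance 0.60), and Nfkbie was closest to Nfkbia 104149_at (0.19). Next to Nfkbia 101554_at stood H2-D1, a class I histocompatibility gene (0.73), and Irf1, an interferon response transcription factor gene (0.75). Nfkbie was followed by Bid, a BH3-domain apoptosis gene (0.43), and Psmb10, an immunoproteasome gene (0.47).

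Nfkbib lay nearest to S1pr3, a sphingosine-1-phosphate receptor gene (0.22), H2-Q4 (0.26) and Tapbp, the tapasin gene of class I peptide loading (0.26). Nfkb2 lay nearest to Tnip1, which encodes a binding partner of the deubiquitinase A20 (0.21), Sod2, the mitochondrial superoxide dismutase gene (0.23), and Fosl1, an AP-1 subunit gene (0.29). Tnip1 read 2031 and 656.6 in knockout cells with and without TNF and 2792 and 753.7 in wild-type cells with and without TNF, log2 changes of 1.63 and 1.89. Relb lay nearest to 2 probe sets of Vcam1, an adhesion receptor gene (0.38 and 0.44), and to Bid (0.38). The histocompatibility probe sets may share hybridisation with related genes and are uncertain.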

How the data were processed

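Total RNA of 4 cultures was measured on 1 array each, and the sample titles gave the groups. The intensity values are MAS5 signals on a linear scale, deposited by the authors after MAS5 processing, per the submitters' processing notes; no source used here gives its version, background settings or detection calls. All 12488 probe sets were read, and 66 control probe sets were left out. Probe sets were named through the platform annotation: 10833 had 1 symbol, 396 several and 1193 none.

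Signals were rescaled to a common trimmed mean (2% left out at each end), which changed nothing, floored at 92.5 and converted to log2. Folds of at least 2 were counted. The additive fit used limma 3.58.1 in R 4.3.3 (lmFit, then eBayes with a trend on intensity, 2-sided, adjusted after Benjamini and Hochberg over 8228 probe sets, adjusted p threshold 0.05, prior degrees of freedom 5.24) and was tested on simulated data. P-values rest on the gap between the TNF responses of the genotypes and on spread borrowed across probe sets, not on replicate cultures. The number of arrays limits the precision. Members, lists and tests were chosen with earlier results of these data known. Named genes were all member probe sets, list genes past 2-fold with TNF or otherwise a range, and the 3 nearest patterns. Other items were chosen after their values were seen: Ikbkb, Ikbkg, Ikbke, Btrc, Fbxw11, the genes named for genotype (Tab2, Hdac2, Crebbp), Tnip1's signals, Xist and Eif2s3y. So were the named cell type markers Cd14, Csf1r, Cd68, S100a4 and Thy1. A list gene with several probe sets was represented by the brightest. The alternatives were equal medians, quantile normalization, floors at the 20th and 60th percentile or none (signals under 1 set to 1), a filter on every array, 1 probe set per gene, and no intensity trend. Promoter windows are from RefSeq (GRCm38.p6), matched for 6 of the 7 members.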

Additional observations from a re-analysis of the deposited data

Results flagged for a closer look

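With a single array per group, no group was large enough to look for a sample far from the others. In 4 of 7 member probe sets above the floor on every array, the sign of the genotype ratio turned with TNF. Among 6664 such probe sets, 34.5% were lower in the knockout in both states and 38.6% higher in both. The remaining ones turned sign or held a tie. For Nfkbib the ratios were only -0.05 unstimulated and 0.05 with TNF, and with equal medians they were -0.01 and -0.15. The unstimulated ratio of Nfkb2 was 0.04. The log2 knockout to wild-type ratio with TNF minus that in unstimulated cells was 0.68 for Nfkbie, 0.35 for Nfkbia 104149_at, 0.10 for Nfkbib and -0.32 for Nfkb2. None of these differences was tested, since each rests on 1 array per group. The other Nfkbia probe set, 101554_at, kept the knockout above the wild-type in both states.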

How the results depend on the processing

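At least 2-fold increases with TNF were counted in 6 to 8 member probe sets in knockout cells and in 7 to 9 in wild-type cells under every normalization, floor and filter tried, and none was 2-fold lower. Bcl3 and Relb 162372_f_at could not have fallen where only their TNF signals were above the floor. Above the floor on both arrays, the counts were 6 of 7 and 7 of 7, where 1.25% and 2.26% of all such probe sets were 2-fold higher. With no floor, 540 of 12381 and 602 of 12378 probe sets were 2-fold higher, and 736 and 1844 lower. The count of members 2-fold apart between genotypes under TNF, with floored values included, was 0 with the processing as reported. It was 1 with quantile normalization, 2 with equal medians, 1 with the floor at the 20th percentile and 1 with no floor, each lower in the knockout. In the same order, 420 of 7896, 573 of 7841, 613 of 10286 and 981 of 12380 measured probe sets were 2-fold lower. Those 2-fold higher were 352, 323, 1063 and 1733. The count of differing responses took the same values, 1, 2, 1 and 1. A response 2-fold smaller in the knockout was found in 146 of 8179, 204 of 8186, 362 of 10798 and 798 of 12407 probe sets. One 2-fold larger was found in 145, 124, 985 and 1796. The members counted were Relb 162372_f_at in each case and also Bcl3 with equal medians. With quantile normalization and with equal medians, Relb 162372_f_at was above the floor on the TNF-treated wild-type array alone. It could then only come out lower, and its differing response is a floored value without a bound. In limma the members passing for TNF numbered 7 or 8 of those measured, except 1 without the intensity trend. Over all probe sets, 83 of 8228 rose with TNF as reported, 389 of 8186 with equal medians and 9 of 8228 without the trend. Those that fell were 7, 104 and 0. For genotype the count of 1 became 0 with the floor at the 20th percentile, with no floor and without the intensity trend. With equal medians it was also 1, but Relb 162372_f_at (limma adjusted p = 0.0334) had taken the place of Rela. In that setting this probe set could only come out lower in the knockout. The cause of these changes was not tested. Over the alternatives the limma adjusted p of the TNF effect ran from 2.82e-37 to 0.0396 for Nfkbia 101554_at and from 0.000616 to 0.259 for Rela; the lowest values came with equal medians, where the estimated prior degrees of freedom were infinite. Rela lost its TNF call also with the floor at the 20th percentile (limma adjusted p = 0.0506). The response of Bcl3 in knockout cells was 0.78 on the log2 scale with the floor at the 60th percentile, under 2-fold. Equal medians moved the median TNF change of all probe sets in wild-type cells to 0.16, against -0.10 as reported, and the split of probe sets at least 2-fold higher and lower there was 367 and 97 with equal medians, 252 and 117 with quantile normalization and 199 and 219 as reported. The additive fit already sets TNF against unstimulated within each genotype, and with 1 array per group no further pairing could be fitted. Leaving out an array leaves the additive fit no residual degree of freedom, so that was not run. Signals near the floor, as for Bcl3 without TNF, the second Relb and the second Rela probe sets, limit what these arrays can show for those members.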
